A study of Mus musculus with 6 samples.

Results

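The genes described here encode the matrix metalloproteinases (MMP), the ADAM and ADAMTS proteases, and the tissue inhibitors of metalloproteinases (TIMP), as measured in mouse liver. They were taken from the array's probe sets that the platform annotation pairs with a single gene symbol, by symbols in which Mmp, Timp, Adam or Adamts is directly followed by a digit. This gave 115 of 34945 such probe sets and 64 of 18193 genes, namely 17 MMP, 4 TIMP, 28 ADAM and 15 ADAMTS genes. The samples were livers of male C57BL/6 mice, an inbred strain, fed for 12 weeks, from 8 weeks of age, on the control food named normal diet or on food with 60% of its calories from fat, named high-fat diet. No gene was altered in either group, and diet was the labelled difference. The design text says that RNA of 6 mice per diet was pooled by twos. This is read here as 3 pools of 2 mice, each on its own Affymetrix mouse expression array (n = 3 arrays per diet throughout), although the labels do not say which mice an array holds. P-values measure the spread between these arrays, which on this reading is that between pools and not between single mice, and which would be technical if arrays shared a pool.

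MMPs are zinc proteases that cut collagens, gelatin and other parts of the extracellular matrix, and most are secreted as inactive precursors. ADAMs are anchored in the membrane and release the outer parts of surface proteins, while ADAMTS proteases are secreted and act on proteoglycans, procollagens and other matrix proteins. TIMPs bind the active site of these enzymes, and in liver they are known as brakes on matrix turnover and on shedding, made largely by stellate cells, macrophages and other cells outside the hepatocyte.

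A member was counted as above background when its probe set with the highest mean exceeded the level below which 40% of all probe sets of that array fall, called the 40th percentile here (log2 3.48 to 3.59), in at least 3 of the 6 arrays. By this measure 36 of the 64 genes were above background, or 56.2%, against 77.3% of all 18193 genes. They were 9 of 17 MMP, 4 of 4 TIMP, 16 of 28 ADAM and 7 of 15 ADAMTS genes. A stricter level was taken from 78 probe sets of olfactory and vomeronasal receptors, genes that liver is not known to use, whose 95th percentile lay at 4.23 to 4.68. Of the 64 genes 25 exceeded it in at least 3 arrays, against 60.6% of all genes. The 4 collagenase genes Mmp1a, Mmp1b, Mmp8 and Mmp13 were not above background. Neither were Mmp3 (stromelysin 1), Mmp11, Mmp16 and Mmp20. The ADAM genes not above it were Adam1a, Adam2, Adam3, Adam5, Adam6a, Adam6b, Adam22, Adam24, Adam25, Adam26a, Adam32 and Adam34. Several ADAMs are known as testis genes, and these lay on either side. Adam4 (means of 6.16 and 6.12 under the normal and high-fat diet) and Adam18 (4.77 and 4.79) exceeded even the receptor level in all 6 arrays, and Adam1b and Adam21 were also above background. Outside that group, Adam7 and Adam28 were above background too. Of the ADAMTS genes, Adamts3, Adamts4, Adamts8, Adamts12, Adamts15, Adamts18, Adamts19 and Adamts20 were not above background, while Adamts7 and Adamts16 were among those that were. Mmp15 and Adamts13, which belong to these families, are not analysed here.

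**Figure D1:**
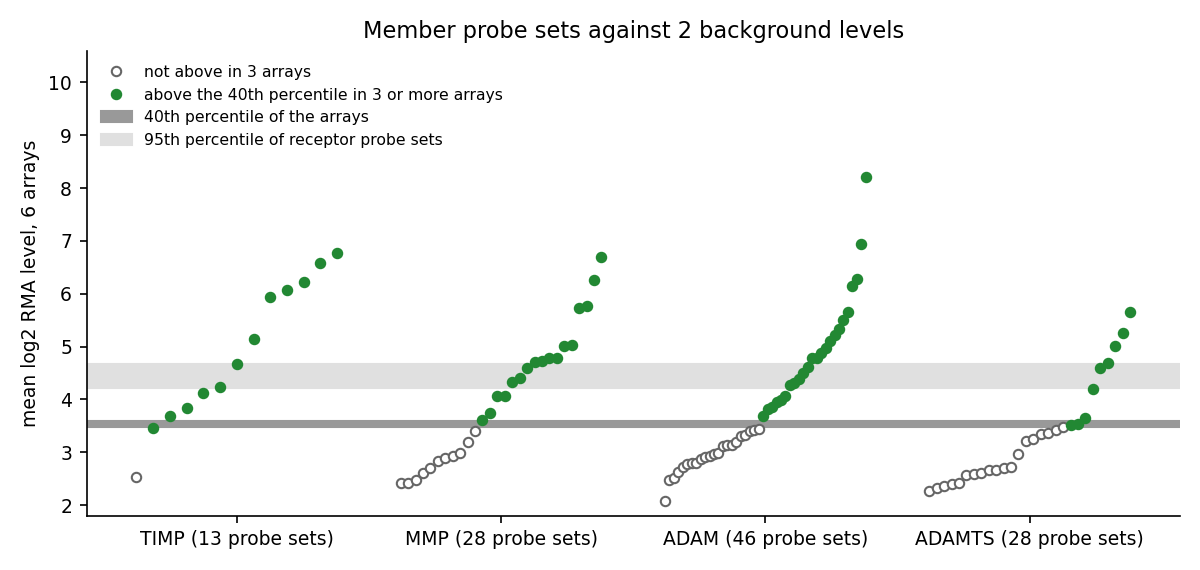
Mean log2 level over 6 arrays of each of the 115 member probe sets, by family, in ascending order. The dark band spans the arrays' 40th percentiles (3.48 to 3.59) and the light band the receptor level (4.23 to 4.68). Of the 115 probe sets, 62 lay above the 40th percentile in 3 or more arrays (filled) and 44 in 0 arrays.

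Across the tested members, Timp3 alone passed the test between diets. It rose 1.53-fold under the high-fat diet (limma adjusted p = 0.0365), and 0 members fell. This is 1 of 36, against 7.6% of all 14071 tested genes (1070 genes), so the families as a whole held no larger share of called genes than the liver's other genes. At an unadjusted p below 0.05 there were 13 of the 36 members against 27.6% of all genes (limma), with 7 higher against 18.1% and 6 lower against 9.46%. In 15 members, or 41.7%, every array of a diet lay on the same side of the other diet's arrays, against 35.8% of all genes. Of these 8 were higher under the high-fat diet, against 21.1% of all genes, and 7 lower, against 14.7%. With each probe set tested on its own 1 of 62 member probe sets was called, against 6.03% of all. Differences were small. The median absolute log2 difference was 0.199 among members and 0.192 among all tested genes, and 0 members reached 2-fold, which 3.2% of all genes did. Timp1 and Timp3 reached 1.5-fold, as did 11.1% of all genes. Of the 36 members 14 had a difference above 0, against 50.5% of all genes. The signed median was -0.04 for members and 0.00 for all genes. By family the median difference was 0.53 for TIMP, -0.19 for MMP, -0.03 for ADAM and -0.05 for ADAMTS genes. The 4 TIMP differences were above 0 and 7 of 9 MMP differences below 0 under each of 3 further scalings of the arrays, whereas the ADAM median turned to 0.02 after median centring.

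**Figure D2:**
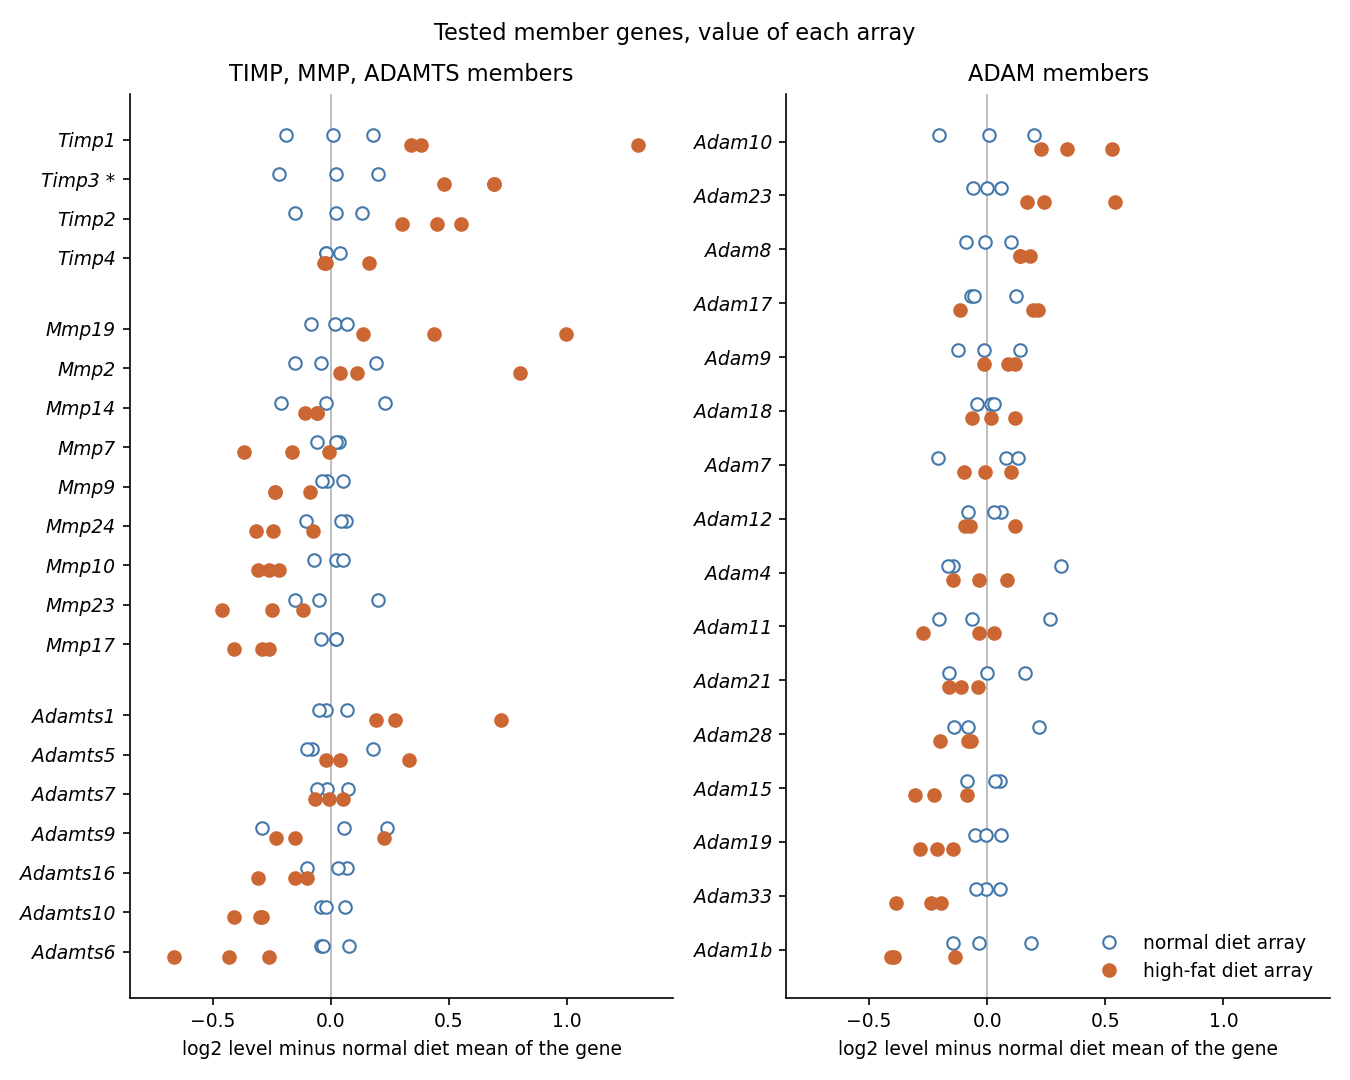
Each tested member is a row, with its 3 normal diet arrays (open) and 3 high-fat arrays (filled) drawn as log2 level minus the gene's normal diet mean. The asterisk marks Timp3, the member called by limma at an adjusted p below 0.05. Timp1, Timp2 and Timp3 lie to the right in all 3 high-fat arrays, with 1 high-fat array of Timp1 far from the other two.

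Timp3, whose product is held in the matrix and inhibits MMPs, Adam17 and several ADAMTS enzymes, read 6.48, 6.66 and 6.24 in the normal diet arrays and 7.15, 7.15 and 6.94 in the high-fat arrays. Every high-fat value was above every normal diet value. The difference was 0.62 ± 0.13 (SE of limma's fit, 95% interval 0.30 to 0.93, n = 3 per diet). Timp3 had 4 probe sets. The values above are from the brightest, and the others differed by 0.57 ± 0.19, 0.50 ± 0.21 and 0.05 ± 0.12, without passing when each probe set was tested on its own (limma adjusted p = 0.122, 0.192 and 0.816). The last of these, at 3.67 and 3.72, lay close to background. The call was lost without high-fat array 1, 2 or 3 (0.58, 0.58 and 0.69, limma adjusted p = 0.133, 0.135 and 0.0907) and without normal diet array 1 (0.63, limma adjusted p = 0.0632). It was also lost when the arrays were quantile normalized again (0.50, limma adjusted p = 0.0581) and when its probe sets were averaged (0.44, limma adjusted p = 0.0923).

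Timp2, an inhibitor that also takes part in the activation of Mmp2 by Mmp14, was 1.35-fold higher without passing (limma adjusted p = 0.0674). It read 5.85, 6.13 and 6.02 under the normal diet and 6.30, 6.55 and 6.45 under the high-fat diet, and the groups did not overlap. Its 6 probe sets did not move alike. The set used for the gene differed by 0.44 ± 0.12 and another, also without overlap, by 0.54 ± 0.14, while one at a similar level differed by -0.14 ± 0.11. When the 6 were averaged the Timp2 difference was 0.19.

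Timp1, the inhibitor gene most often followed as a sign of liver injury and fibrosis, had the largest difference of any tested member, 0.67 ± 0.26 or 1.59-fold, but did not pass (limma adjusted p = 0.15). The normal diet arrays read 4.07, 3.90 and 3.70 and the high-fat arrays 4.27, 4.23 and 5.19. The groups did not overlap, but high-fat array 3 stood almost 1 log2 unit above the other two. Without it the difference was 0.36. Timp1 exceeded the receptor level in 2 of the 6 arrays, so its low values lie where RMA compresses differences. Timp4 stayed near background in both diets (3.82 and 3.86) and differed by 0.04 ± 0.10 (95% interval -0.19 to 0.27).

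RefSeq sequence upstream of the transcription start was held for 36 of the 64 genes (40 promoters, assembly GRCm38.p6). The 250 bases before each start were searched on both strands for 3 motifs, namely the AP-1 site TGANTCA, the GC box GGGCGG and the TATA box TATAAA. The AP-1 letters were in 9 of the 40 member promoters and in 6.75% of all 32851 promoters. The GC box was in 15 of 40 and 32.7%, and the TATA box in 10 of 40 and 12.4%. The AP-1 genes were Adam19, Adam25, Mmp1a, Mmp1b, Mmp3, Mmp7, Mmp10, Mmp13 and Mmp20, and these Mmp genes also held the TATA box. Mmp3, Mmp7, Mmp10 and Mmp13 lie close together on chromosome 9, and related neighbours are not independent counts. The last 120 bases before the start are shown for the 3 TIMP genes whose arrays did not overlap and for 3 MMP genes of the chromosome 9 cluster that lay near or below background, with motif matches in capitals, 5′ to 3′ on the gene's strand.
Timp3 (chr10:86300292-86300411, plus strand): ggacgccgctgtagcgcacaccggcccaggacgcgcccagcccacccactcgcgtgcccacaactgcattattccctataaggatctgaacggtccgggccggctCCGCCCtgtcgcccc
Timp2 (chr11:118355412-118355531, minus strand): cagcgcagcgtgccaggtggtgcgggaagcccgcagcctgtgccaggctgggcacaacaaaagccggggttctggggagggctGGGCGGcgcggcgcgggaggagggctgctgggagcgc
Timp1 (chrX:20870046-20870165, plus strand): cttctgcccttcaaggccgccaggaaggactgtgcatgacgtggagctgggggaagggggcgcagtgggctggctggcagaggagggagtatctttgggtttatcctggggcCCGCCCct
Mmp13 (chr9:7272394-7272513, plus strand): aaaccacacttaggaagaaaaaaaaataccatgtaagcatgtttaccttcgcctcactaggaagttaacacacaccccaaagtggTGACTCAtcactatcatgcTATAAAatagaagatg
Mmp3 (chr9:7445702-7445821, plus strand): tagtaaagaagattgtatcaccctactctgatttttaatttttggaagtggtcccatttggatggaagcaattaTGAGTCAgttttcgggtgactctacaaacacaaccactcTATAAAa
Mmp10 (chr9:7502222-7502341, plus strand): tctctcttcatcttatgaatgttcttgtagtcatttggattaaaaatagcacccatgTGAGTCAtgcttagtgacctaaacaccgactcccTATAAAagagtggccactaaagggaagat
In these windows the TIMP promoters held a GC box and neither of the other motifs, and the MMP promoters held an AP-1 match upstream of a TATA match. This contrast is one of the promoters shown and not of the families. In the 250 bases searched, Mmp11, Mmp14 and Mmp24 held the GC box and neither of the other motifs. Mmp7, also on chromosome 9, exceeded the receptor level in all 6 arrays. It too held an AP-1 match and a TATA match, 63 and 26 bases before a start, while the 120 bases before another Mmp7 start held no motif. The GC box of Timp3 and Timp1 is on the strand not shown, so its complement is in capitals. The AP-1 match began 35, 46 and 63 bases before the start of Mmp13, Mmp3 and Mmp10. A match of letters describes the sequence and says nothing of which factor binds it.

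Among the collagenases, Mmp13, the main interstitial collagenase of mouse, was below background in all 6 arrays yet ordered by diet. Its single probe set read 2.31, 2.38 and 2.19 under the normal diet and 2.82, 2.74 and 3.16 under the high-fat diet. The filter on low levels kept it out of the main test. Without that filter its difference of 0.62 ± 0.13 passed (limma adjusted p = 0.0392), against 5.84% of the 18193 genes then tested, but a difference between levels this low cannot be read as a change in detected transcript. Among the 28 members not above background the diets did not overlap in 6, against 17.1% of all 4122 genes not above background. Of these Mmp13 was higher, against 3.03% of those genes, and Adam26a, Adam3, Adam6b, Adamts3 and Adamts4 were lower, against 14%. The neutrophil collagenase gene Mmp8 read 3.51 and 3.30 on average, above the 40th percentile in 1 array. Stromelysin 1, encoded by Mmp3, read 3.31 and 3.09. Mmp10 (stromelysin 2) averaged 4.19 and 3.93 and its groups did not overlap, but it was not called (-0.26 ± 0.09, limma adjusted p = 0.123) and lay under the receptor level in all 6 arrays.

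The gelatinases cut denatured collagen and the collagen of basement membranes. Mmp2, made by stellate cells and fibroblasts, read 4.63, 4.40 and 4.29 under the normal diet and 4.48, 5.24 and 4.55 under the high-fat diet. High-fat array 2 stood above all others and the remaining values overlapped. The difference of 0.31 ± 0.21 did not pass (limma adjusted p = 0.364) and was 0.07 without that array. Mmp9, a gene of neutrophils and macrophages, read 4.15, 4.13 and 4.22 against 3.93, 3.93 and 4.08. Its groups did not overlap, with the high-fat arrays lower, but the difference of -0.19 ± 0.10 did not pass (limma adjusted p = 0.245). Mmp9 lay under the receptor level in all 6 arrays, and its other probe set overlapped between diets (-0.11 ± 0.15).

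Mmp19, a metalloproteinase of basement membrane and matrix proteins, had the largest difference of the tested MMP genes. It read 4.48, 4.53 and 4.38 in the normal diet arrays and 4.6, 4.9 and 5.46 in the high-fat arrays. All high-fat arrays were higher, and high-fat array 3 was the highest, as it was for Timp1. Mmp19 exceeded the receptor level only in the 3 high-fat arrays, so its normal diet values lay under that level. The difference was 0.53 ± 0.21, or 1.44-fold, and did not pass (limma adjusted p = 0.154), with 0.29 without high-fat array 3. The other Mmp19 probe set moved alike, from a mean of 3.98 to 4.82 (0.84 ± 0.27, limma adjusted p = 0.116 in the fit of single probe sets).

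Of the membrane-bound MMPs, Mmp14, the activator of Mmp2, read 6.71, 6.52 and 6.96 against 6.62, 6.67 and 6.67. The normal diet arrays spread to either side of the high-fat ones, and the difference was -0.08 ± 0.13 (95% interval -0.38 to 0.22, limma adjusted p = 0.703). Mmp17, which is attached to the membrane by a lipid anchor, read 4.89, 4.83 and 4.89 against 4.46, 4.58 and 4.61. Its groups did not overlap and it was 1.25-fold lower without passing (-0.32 ± 0.09, limma adjusted p = 0.0826). The remaining tested MMP genes Mmp7, Mmp23 and Mmp24 overlapped between diets, with differences of -0.18, -0.28 and -0.21. A further Mmp23 probe set went the other way (0.23 ± 0.14).

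**Figure D3:**
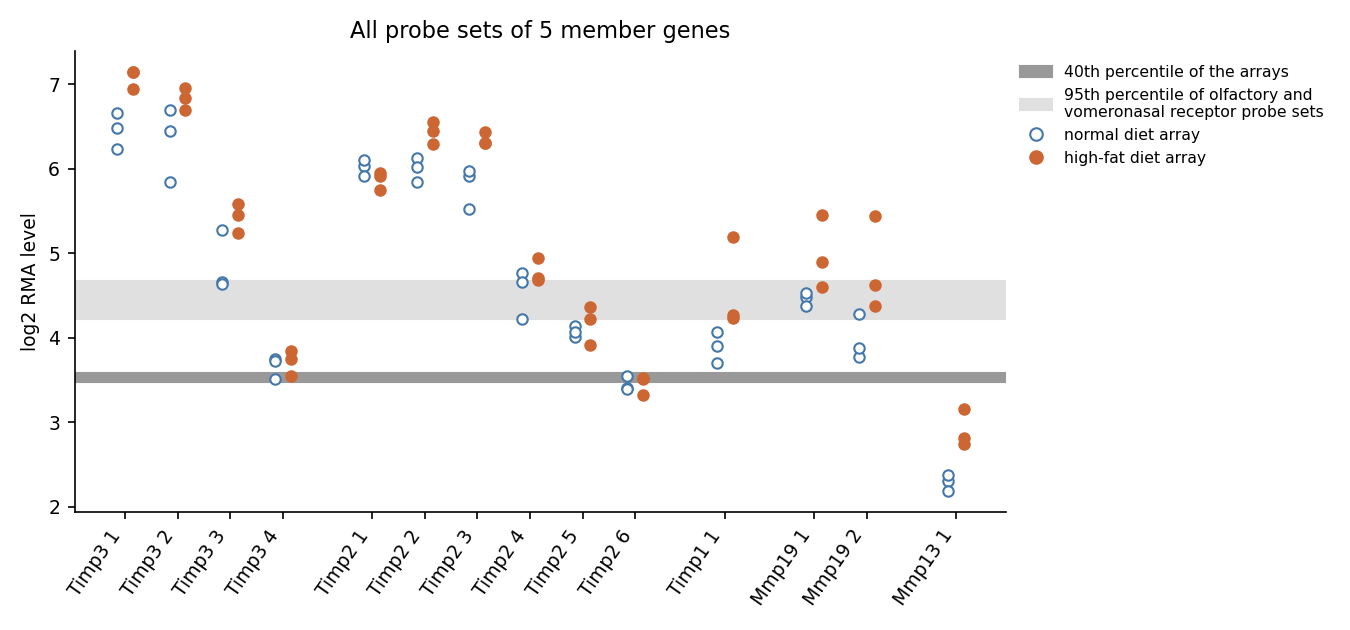
Log2 levels of every probe set of Timp3, Timp2, Timp1, Mmp19 and Mmp13, ordered by level within a gene, with normal diet arrays open and high-fat arrays filled. The bands are the background levels of 3.48 to 3.59 and 4.23 to 4.68. Timp2 probe sets 2 and 3 lie higher under the high-fat diet, while set 1 overlaps between diets with a lower high-fat mean. Mmp13 lies below both bands.

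The 16 tested ADAM genes held 0 calls (limma), with differences between -0.31 and 0.37. At an unadjusted p below 0.05 (limma) there were 4 (Adam10, Adam1b, Adam23 and Adam33), against 27.6% of all tested genes. Adam10, the main sheddase of Notch and of cadherins, read 6.77, 6.56 and 6.96 under the normal diet and 7.10, 7.29 and 6.99 under the high-fat diet. Its groups did not overlap but came within 0.03 of each other, and the difference of 0.37 ± 0.14, or 1.29-fold, did not pass (limma adjusted p = 0.141). Averaged over its 4 probe sets it was 0.13. Adam17, which releases TNF and EGF receptor ligands and is inhibited by Timp3, read 6.36, 6.17 and 6.18 against 6.12, 6.43 and 6.45. These values overlapped, and the difference was 0.10 ± 0.13 (95% interval -0.20 to 0.39, limma adjusted p = 0.636), with its sign turned (-0.0082) after repeated quantile normalization.

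Adam8, a leukocyte ADAM, read 4.53, 4.45 and 4.64 against 4.68, 4.68 and 4.72, a narrow separation of 0.16 ± 0.10 that did not pass. Adam23, which lacks protease activity and is best known from brain, was 0.32 ± 0.12 higher (limma adjusted p = 0.149). It read 5.23, 5.17 and 5.11 against 5.34, 5.71 and 5.41, without overlap, while its other probe set above background differed by 0.01. Adam33 averaged 5.01 and 4.74 and Adam19 3.93 and 3.72, each lower without overlap (-0.27 ± 0.10 and -0.21 ± 0.10, limma adjusted p = 0.136 and 0.195). Adam19 lay under the receptor level in all 6 arrays. Adam9, Adam11, Adam12 and Adam15 overlapped between diets, with differences of 0.06, -0.10, -0.02 and -0.21. Adam12 lay under the receptor level in all 6 arrays. A further probe set of Adam15 and one of Adam11 were lower without overlap and without passing (-0.28 ± 0.12 and -0.12 ± 0.09, limma adjusted p = 0.211 and 0.461). The remaining Adam15 probe sets overlapped (0.02 and 0.05). The sign for Adam9 and Adam12 turned under other scalings of the arrays.

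Of the ADAMTS proteoglycanases, Adamts1, which cuts versican and aggrecan, read 5.53, 5.44 and 5.41 under the normal diet and 6.18, 5.73 and 5.65 under the high-fat diet. The groups did not overlap and high-fat array 1 was the highest. The difference of 0.39 ± 0.15, or 1.31-fold, did not pass (limma adjusted p = 0.149) and was 0.23 without that array. Adamts5 and Adamts9, of the same group, overlapped and differed by 0.12 ± 0.13 and -0.05 ± 0.18. Adamts4 lay at 3.42 and 3.28, near background. Adamts10, a protease linked to fibrillin microfibrils, read 4.82, 4.92 and 4.84 against 4.45, 4.56 and 4.57. It was lower without overlap and was not called (-0.34 ± 0.09, limma adjusted p = 0.0738), and its other probe set differed by 0.00. Adamts6 averaged 3.76 and 3.30, again without overlap (-0.46 ± 0.12, limma adjusted p = 0.0685), with levels at background.

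Genes that act with these proteases were read from the same fit in 7 lists. In all 81 tested genes of the lists, 14 rose, 2 fell and 65 were not called, against 5.87% higher and 1.73% lower among all tested genes. These counts became 8, 5 and 6 calls in either direction without high-fat array 1, 2 and 3. The members themselves held 1 rise and 0 falls in 36, and the difference between these shares was not tested.

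Of 18 matrix substrates 5 rose, 1 fell and 12 were not called, with a median difference of 0.36. Nid1, a basement membrane linker, rose 2.68-fold (1.42 ± 0.11, limma adjusted p = 0.00237), Vwf, the substrate of a member of the ADAMTS family, 1.91-fold (0.93 ± 0.10), and the proteoglycan gene Dcn 1.55-fold (0.63 ± 0.10, not called when any high-fat array was left out). The fibrillar collagen gene Col3a1 rose 4.92-fold (2.30 ± 0.47, limma adjusted p = 0.032). It read 5.87, 6.39 and 6.56 under the normal diet and 7.48, 9.54 and 8.70 under the high-fat diet, with the highest value in high-fat array 2, as for Mmp2. Col1a2, another fibrillar collagen gene, rose 2.52-fold (1.33 ± 0.29, limma adjusted p = 0.0383). The fibrillar collagen genes Col1a1 and Col5a1 overlapped between diets and were not called (0.21 ± 0.15 and 0.30 ± 0.14, limma adjusted p = 0.415 and 0.219). The calls of Col3a1 and Col1a2 were lost without normal diet array 1 or 2 and without high-fat array 2 or 3. The gene that fell was Fn1, which encodes fibronectin (-0.42 ± 0.10, limma adjusted p = 0.0448), and its call held only without normal diet array 1 among the 6 fits with an array left out.

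Among 8 tested matrix-degrading proteases of other classes 3 rose and 0 fell. Ctss, a cathepsin of macrophages, rose 1.93-fold (0.95 ± 0.12, limma adjusted p = 0.00741). Ctsz rose 1.61-fold (not called without normal diet array 1 or 2 or high-fat array 1 or 2) and Ctsk, the collagen-cutting cathepsin, 1.54-fold. Of 20 tested surface proteins known to be shed by Adam10 or Adam17, 3 rose and 0 fell. Cd44, the hyaluronan receptor, rose 2.32-fold (1.21 ± 0.12, limma adjusted p = 0.00424), the receptor tyrosine kinase gene Axl 2.33-fold (1.22 ± 0.15) and Notch1 1.54-fold (the calls of Notch1 and Ctsk were lost whichever of the 3 high-fat arrays was left out, and that of Ctsk without normal diet array 2). Of 10 regulators of Adam10 and Adam17 1 rose, the Adam10-binding tetraspanin gene Tspan14 (1.68-fold, 0.75 ± 0.14, limma adjusted p = 0.022). Its call, like that of Pcsk5, was lost whichever high-fat array was left out.

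Of 12 tested activators and inhibitors outside the TIMP family 0 rose and 1 fell, the proprotein convertase gene Pcsk5 (-0.62 ± 0.11, limma adjusted p = 0.0193). In the plasminogen system 1 of 6 tested genes rose, the plasminogen activator gene Plat (0.56 ± 0.13, limma adjusted p = 0.0429), at mean levels of 3.5 and 4.06 near background. Its call was lost whichever array was left out. Among 7 tested Adamtsl and related genes 1 rose, the procollagen protease enhancer gene Pcolce (0.75 ± 0.14, limma adjusted p = 0.0214). Its call was lost without high-fat array 2 or 3.

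**Figure D4:**
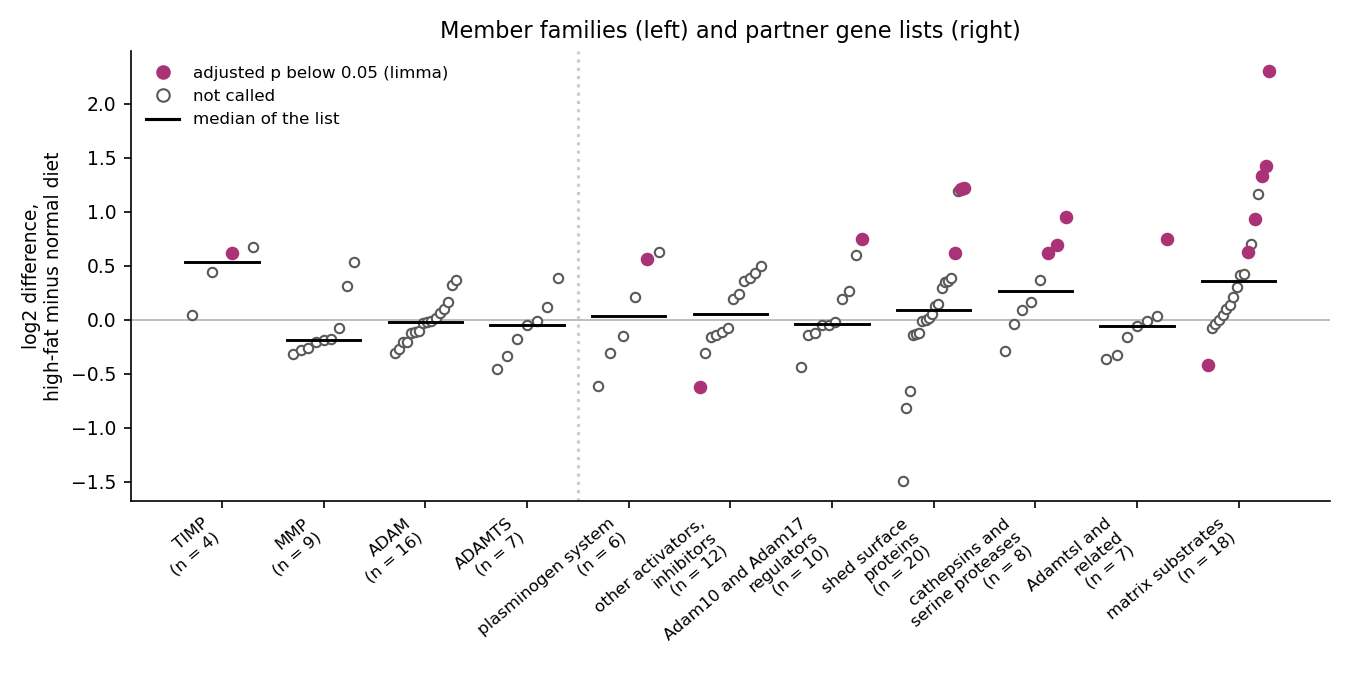
Log2 difference, high-fat minus normal diet, of each tested gene in the 4 member families (left of the dotted line) and the 7 partner lists, with the list's median as a bar and limma calls filled. Timp3 is the filled member. The matrix substrates have a median of 0.36 and reach 2.30 at Col3a1.

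Some markers of several liver cell types were called, all of them higher, where 5.87% of all tested genes were called higher. Whether a list as a whole moved was not tested. Of 8 Kupffer cell markers 4 rose (Cd5l, Csf1r, Vsig4 and Adgre1) and 0 fell, and the mean log2 level of the list was 7.29 to 7.55 under the normal diet and 7.75 to 7.89 under the high-fat diet. The other 4, Clec4f, Folr2, Marco and Timd4, overlapped between diets and were not called (0.07, 0.08, -0.06 and -0.15). Of 7 tested markers of recruited or lipid-associated macrophages 3 rose (Cd68, Itgax and Gpnmb) and 0 fell, with list means of 5.22 to 5.65 and 5.82 to 5.88. The list did not move one way, since Trem2, Ccr2 and Cx3cr1 were lower without overlap and without passing (-0.43, -0.38 and -0.21, limma adjusted p = 0.117, 0.0992 and 0.204), while Cd9 was higher without passing (1.08, limma adjusted p = 0.0826). Among 8 stellate cell and myofibroblast markers 2 rose (Colec11 and Lrat), with list means of 6.40 to 6.49 and 6.78 to 7.0. The remaining 6 were not called. Over the whole list 6 differences were above 0 and 2 below, those of Des (-0.06) and Lox (-0.18). Of 8 endothelial markers 1 rose (Lyve1), with list means of 6.09 to 6.47 and 6.69 to 6.77. The remaining 7 were not called. In this list 7 differences were above 0 and 1 below, that of Clec4g (-0.06). Hepatocyte markers (8 tested, list means of 13.68 to 13.76 and 13.61 to 13.66), neutrophil markers (5 tested, 4.87 to 5.33 and 4.76 to 4.96), cholangiocyte markers (4 tested, 4.47 to 4.73 and 4.38 to 4.55) and T and B cell markers (3 tested, 5.68 to 5.80 and 5.58 to 5.69) held 0 calls by limma. The adipocyte markers Adipoq, Cfd, Plin1 and Lep were not tested, and the other 2 were not called. The part of these cell types in the Timp3 difference was not tested, and in whole liver RNA more cells of a type cannot be told apart from more RNA per cell.

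The arrays resembled each other less under the normal diet than under the high-fat diet. Pearson's r across the tested genes, which are not independent replicates, was 0.972 to 0.988 within the normal diet group, 0.993 to 0.994 within the high-fat group and 0.951 to 0.980 between them. The median SD of a member was 0.095 under the normal diet and 0.115 under the high-fat diet, against 0.166 and 0.117 over all tested genes. The number of arrays limits the precision of each value.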

How the data were processed

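The authors deposited log2 expression levels per probe set, and the submitters' processing notes name RMA and Affymetrix Expression Console 1.0. RMA corrects background, normalizes arrays by quantiles and summarises probes, and it compresses differences near background. Of 45101 probe sets 64 controls were left out, and 34945 of the others had 1 gene symbol, 932 several and 9160 none. The brightest probe set on average stood for a gene, which was tested if above an array's 40th percentile in at least 3 of 6 arrays. limma 3.58.1 in R 4.3.3 (lmFit, eBayes) compared the diets over 14071 genes, two-sided, with Benjamini-Hochberg adjustment and calls at an adjusted p below 0.05. The method was tested on simulated data with known changes. That check set no demand on the recovery of differences as small as those of the members. Members, lists and the naming rule (called members, tested members whose groups do not overlap, landmark genes of each family, and up to 4 called genes of each other list, smallest p first) were chosen with earlier results of these data known. Of the landmarks, Mmp3, Mmp8, Mmp13 and Adamts4 were not tested. Mmp7, Mmp23, Mmp24, the members named for their level alone and Adam1b fall outside the rule and were named after their values were seen. The same holds for Col1a1, Col1a2, Col5a1, Fn1 and the markers not called. The ADAM genes were kept in 1 group because no protein sequences were used here. Alternatives were level filters, a floor, variance models, array weights, scalings, choices of probe set, a stricter threshold, leaving out single arrays and a replicate block. A further gene of the MMP family is not reported here. Summaries used Python 3.11.15, pandas 2.3.3 and matplotlib 3.10.9.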

Additional observations from a re-analysis of the deposited data

How the results depend on the processing

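The count of called members, 1 with all settings as reported, was 2 without a filter on low levels, where Mmp13 joined Timp3. It was 0 after repeated quantile normalization, with averaged probe sets and at an adjusted p below 0.01, and 0 to 1 with 1 array left out. Over all genes the 1070 calls became 172 at an adjusted p below 0.01 and 169 to 1245 with 1 array left out. The 16 called partner genes became 9 with averaged probe sets, 10 with probe sets without a suffix, 5 at an adjusted p below 0.01 and 5 to 17 with 1 array left out. Of all calls 77.2% were higher, and 66.6% after repeated quantile normalization (597 higher and 299 lower genes). Differences of named tested members kept their direction in all but 20 of 444 recomputed values, and 18 of 25 members never turned. Timp3 kept its direction throughout. Those that turned were not called. Adam12 differed by 0.021 with array weights, 0.027 after repeated quantile normalization, 0.059 after cyclic loess, 0.027 after median centring and 0.0023 with averaged probe sets, and by -0.085 to 0.019 with 1 array left out. Adam9 differed by -0.066 and -0.064 after repeated quantile normalization and cyclic loess, and Adam17 by -0.0082 after the former and -0.031 with averaged probe sets. Timp4 differed by -0.041 with averaged probe sets and -0.023 to 0.07 with 1 array left out. With array weights Adamts9 differed by 0.021 and Mmp14 by 0.0063, and with 1 array left out Adam11 differed by -0.20 to 0.039, Adamts9 by -0.20 to 0.065 and Mmp14 by -0.19 to 0.033. The cause of these turns was not tested. Correlations of deviations from the diet means were -0.012, 0.036 and 0.100 for the 3 replicate numbers in the labels. Of the 6 arrays 2 correlated best with their own number. With 3 arrays per diet a weak pairing could give such values, so whether the numbers pair the arrays cannot be settled here. With a replicate block 768 genes, 1 member (Timp3, 0.62, limma adjusted p = 0.0415) and 16 partner genes were called.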

Other observations

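Among the further probe sets of the members, Adam10 has a further probe set above background that differed by 0.06 ± 0.13, and 2 weaker ones whose diets did not overlap in opposite directions (0.38 and -0.29). The 3 Mmp14 probe sets, all above the receptor level in 6 arrays, each overlapped between diets and differed by -0.08 ± 0.13, -0.24 ± 0.17 and -0.02 ± 0.10. Of the 28 members not above background 24 were below it in all 6 arrays.

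Among the 36 tested members normal diet array 3 held the highest value of 12 and the lowest of 7, and high-fat array 1 the highest of 2 and the lowest of 8.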
